A study of Mus musculus with 2 samples.

Results

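The 8 genes Pi16, Dpp4, Sema3c, Cd55, Cd34, Ly6a, Ly6c1 and Anxa3 are surface and secreted markers of adipose progenitors, and they were described here in the stromal vascular fraction of mouse epididymal white adipose tissue (eWAT). They were chosen by name, as genes in use as markers of these cells, and all 8 were found among the 27998 genes of the count tables. One library came from C57BL/6 mice fed a low-fat diet (LFD) and 1 from C57BL/6 mice fed a high-fat diet (HFD), in both cases for 24 weeks starting at 6 weeks of age. Per the methods the mice were males of the C57BL/6J substrain, and the number of animals behind each library is not given in the sources used here. A treatment note attached to both samples names the low-fat diet for each, while the sample titles and the treatment field name 1 HFD sample, and the latter were followed. The single-cell RNA libraries were made with the 10x 3′ chemistry, in which a unique molecular identifier (UMI) stands for 1 captured transcript.

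The stromal vascular fraction is what remains of fat once the adipocytes have been removed, and it holds fibroblast-like stromal cells, endothelial and mural cells and immune cells. Among the stromal cells, interstitial progenitors lie in the connective tissue sheath around the fat lobules, carry PI16 and DPP4 on their surface, and can give rise to committed preadipocytes. PI16 is a membrane-anchored peptidase inhibitor and DPP4 (CD26) a surface protease that removes dipeptides from the ends of peptides. SEMA3C is a secreted guidance ligand that acts through neuropilins and plexins. CD55 protects cells from complement, CD34 is a sialomucin carried by many progenitors and by endothelium, and Ly6a (Sca-1) and Ly6c1 encode small lipid-anchored surface proteins. ANXA3 is a phospholipid-binding annexin of the cytoplasmic side of membranes, so that its transcript is a progenitor marker although the protein is not mainly a surface one.

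By position in the GRCm38 (mm10) annotation, Pi16 lies at chr17:29317680-29330593 on the plus strand, Dpp4 at chr2:62330073-62412231 on the minus strand and Sema3c at chr5:17574281-17730268 on the plus strand. Cd55 spans chr1:130439027-130462744 on the minus strand and Cd34 spans chr1:194938819-194961279 on the plus strand of the same chromosome. Ly6a (chr15:74994877-74998031) and Ly6c1 (chr15:75044018-75048830) are neighbours on the minus strand, and Anxa3 spans chr5:96793339-96845966 on the plus strand. Annotated antisense genes overlap Pi16, Dpp4, Cd55 and Cd34, and a gene model on the same strand overlaps Anxa3, where reads cannot be assigned with certainty. The last 300 bases of the Ly6c1 transcript were 98.0% identical to those of Ly6c2 over 293 aligned bases, so that Ly6c1 counts are uncertain, because reads of this copy may be shared or dropped.

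The 250 bases before the RefSeq transcription start are shown for Dpp4 and Cd55, which were lower in HFD fibroblasts, and for Ly6c1, which differed little there and was high in endothelial barcodes. These 3 windows touch no annotated exon. They are from GRCm38.p6 and are written 5′ to 3′ along the strand of the gene, at chr2:62412232-62412481 (minus strand, Dpp4), chr1:130462745-130462994 (minus strand, Cd55) and chr15:75048838-75049087 (minus strand, Ly6c1). Capitals mark matches on either strand to the TATA letters TATAAA, the CCAAT letters CCAAT, the GC box GGGCGG and the letters GGAATG bound by TEAD factors; an AP-1 match (TGANTCA) was also searched.
Dpp4: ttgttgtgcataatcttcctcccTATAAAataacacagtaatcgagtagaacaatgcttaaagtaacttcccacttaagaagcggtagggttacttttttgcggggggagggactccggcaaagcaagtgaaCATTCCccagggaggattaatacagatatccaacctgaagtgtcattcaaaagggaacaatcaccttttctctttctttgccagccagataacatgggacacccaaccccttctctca
Cd55: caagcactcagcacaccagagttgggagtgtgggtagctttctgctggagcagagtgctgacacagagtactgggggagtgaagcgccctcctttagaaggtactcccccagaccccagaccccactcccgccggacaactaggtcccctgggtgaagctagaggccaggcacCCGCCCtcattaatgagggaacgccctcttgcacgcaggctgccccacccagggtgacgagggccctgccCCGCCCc
Ly6c1: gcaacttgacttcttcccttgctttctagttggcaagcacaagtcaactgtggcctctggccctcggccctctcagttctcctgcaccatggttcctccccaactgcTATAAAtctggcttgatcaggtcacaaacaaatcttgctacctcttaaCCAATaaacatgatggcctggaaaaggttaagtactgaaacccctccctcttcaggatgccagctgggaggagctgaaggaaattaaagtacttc
The Dpp4 window held 1 TATAAA match far upstream, 222 to 227 bases before the start, and 1 GGAATG match on the other strand. Cd55 held 2 GC boxes and no TATAAA match, with 64% G and C against 43.6% for Dpp4 and 48.4% for Ly6c1. In Ly6c1 a TATAAA match lay 138 to 143 bases and a CCAAT match 91 to 95 bases before the start. RefSeq lists a second Ly6c1 start, whose window at chr15:75048664-75048913 overlaps annotated exons of the gene, held none of the motifs, had 53.2% G and C and is not shown. Of 32851 promoter windows of this length, 12.4% held TATAAA, 33.8% CCAAT, 32.7% GGGCGG, 12.6% GGAATG and 6.75% TGANTCA, and the median G and C content was 52.4%. These matches are letters in a window and not sites of binding. The windows of Dpp4 and Cd55 shared no searched motif, and a link between motifs and the diet ratios was not tested.

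The LFD library held 1113 barcodes with 7356278 UMIs and the HFD library 1144 barcodes with 8412325 UMIs, with a median of 6197 and 6486 UMIs per barcode and no barcode shared between them. Of these, 1057 and 1117 had at least 200 genes and were placed in classes. A barcode with at least 10 UMIs of Dcn, the transcript of the matrix proteoglycan decorin, was called a fibroblast if it met no other class, which gave 377 LFD (35.7%) and 291 HFD (26.1%) fibroblasts. Their median depth was 8500 and 7903 UMIs. Endothelial barcodes (at least 3 UMIs of Cdh5 and Cldn5 together) numbered 98 and 115, and macrophages (at least 10 UMIs of C1qa, C1qb and C1qc) 230 and 321. The mural threshold (at least 5 UMIs of Rgs5, Kcnj8, Abcc9 and Notch3) overlapped with the endothelial one in 58 of 64 LFD and 108 of 116 HFD barcodes that met it, so only 5 and 6 purely mural barcodes remained and no level is read from them. The 51 LFD and 92 HFD barcodes that met both these thresholds and no other were kept as a separate set, with a median of 13270 and 9029 UMIs.

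Fibroblasts carried Pdgfra (368 CPM in LFD and 287 CPM in HFD) and Lum (556 and 1650 CPM), while Ptprc, the pan-leukocyte marker, stood at 2.22 and 3.72 CPM. CPM here is the number of UMIs of a gene per 1000000 UMIs of all barcodes in a class. Inside the fibroblast class lay 29 LFD and 14 HFD barcodes with at least 5 UMIs of the mesothelial markers Msln, Upk3b, Upk1b and Lrrn4, and no barcode outside the class carried that many. In these mesothelial-marked barcodes Upk3b stood at 2431 and 2503 CPM, whereas Lum had 4 UMIs in LFD and none in HFD. All 4 of these markers were at or under 1 CPM in the other 348 LFD and 277 HFD fibroblasts. Several of the 8 genes differed strongly between the mesothelial-marked and the other fibroblasts, and the diet ratios, the shares of Pi16, Dpp4 and Sema3c and the pairs are therefore given with and without them.

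Pi16 was found almost wholly in fibroblasts, and there in those that were not mesothelial-marked. It counted 1280 UMIs in LFD fibroblasts, a level of 405 CPM (exact Poisson 95% interval 383 to 428), and 416 UMIs in HFD fibroblasts, 172 CPM (156 to 189). Endothelial barcodes held no Pi16 UMI in either library, which, at a limit of 3 counts, allows a share of up to 3.06% of LFD and 2.61% of HFD barcodes with a UMI (3.69% and 3.16% as the upper end of the exact binomial interval). Macrophages, which give the background of free RNA, had Pi16 in 1.30% of LFD and 0.312% of HFD barcodes, against 41.6% and 29.6% of fibroblasts, at median depths of 6328 and 6915 UMIs. Among the mesothelial-marked barcodes, 1 of 29 in LFD held all 10 of their Pi16 UMIs and none of 14 in HFD held any. Another LFD barcode, dendritic-marked, held 4 UMIs of Pi16. Intervals and limits cover counting error only, since each diet is 1 library and no spread between animals can be had.

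Dpp4 and Sema3c were also at 0 UMIs in endothelial barcodes of both libraries and within 0 to 1.35 CPM in macrophages. Dpp4 stood at 172 CPM (157 to 187) in LFD and 97.4 CPM (85.4 to 111) in HFD fibroblasts, and Sema3c at 239 CPM (222 to 256) and 167 CPM (151 to 184). Both were higher in the mesothelial-marked barcodes than in the other fibroblasts. For Dpp4 the mesothelial-marked barcodes had 397 CPM (335 to 467) in LFD and 508 CPM (402 to 633) in HFD, against 142 CPM (129 to 157) and 69.3 CPM (58.8 to 81.0) in the others. Sema3c had 325 and 367 CPM there, against 227 and 153 CPM in the others. Dpp4 and Pi16, which name the same progenitor together, thus parted in this set: 93.1% of LFD and 85.7% of HFD mesothelial-marked barcodes had a Dpp4 UMI.

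Dendritic-marked barcodes, defined by at least 3 UMIs of Flt3, Cd209a, Xcr1 and Clec9a in barcodes of no other class, also carried Dpp4. Its level was 70.4 CPM (33.7 to 129) in 16 LFD and 119 CPM (80.8 to 169) in 36 HFD barcodes, with a UMI in 43.8% and 50% of them. In HFD this was not below the fibroblast level of 97.4 CPM, and the intervals overlapped.

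Cd55 had 430 CPM (408 to 454) in LFD and 337 CPM (315 to 361) in HFD fibroblasts. Outside them its level was 25.3 and 9.68 CPM in endothelial barcodes and 4.04 and 3.08 CPM in macrophages. B cell-marked barcodes held 187 CPM (107 to 303) of Cd55 in LFD, from 16 UMIs in 20 barcodes, and 1 UMI in 8 barcodes in HFD. Mesothelial-marked barcodes had 57.9 CPM in LFD and 12.9 CPM in HFD, so that Cd55 went with Pi16 there and not with Dpp4.

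Cd34, Ly6a, Ly6c1 and Anxa3 were shared between fibroblasts and endothelium. Cd34 stood at 706 CPM (677 to 736) in LFD and 512 CPM (484 to 541) in HFD fibroblasts, and at 268 CPM (226 to 315) and 445 CPM (390 to 507) in endothelial barcodes. Ly6a stood at 1382 CPM (1342 to 1424) and 1539 CPM (1490 to 1589) in fibroblasts and at 1151 CPM (1063 to 1244) and 1117 CPM (1028 to 1212) in endothelial barcodes. Ly6c1 was the only 1 of the 8 whose endothelial level was above its fibroblast level in both libraries, with 1442 CPM (1344 to 1546) and 1262 CPM (1167 to 1363) against 367 CPM (347 to 389) and 392 CPM (367 to 418). Anxa3 stood at 485 CPM (461 to 510) and 369 CPM (345 to 394) in fibroblasts, and at 384 CPM (334 to 439) and 428 CPM (373 to 488) in endothelial barcodes, where the HFD intervals of the 2 classes overlapped.

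Anxa3 was the member with a clear level in macrophages, at 112 CPM (95.3 to 130) in LFD and 182 CPM (167 to 199) in HFD, while the other 7 genes stayed at or below 4.04 CPM in that class. Ly6a was also found in lymphocytes. B cell-marked barcodes had 1062 CPM (855 to 1304) and 871 CPM (546 to 1319) of Ly6a, and T or NK-marked barcodes had 261 CPM (207 to 325) and 172 CPM (91.4 to 294). In the mesothelial-marked barcodes Ly6a was only at 259 CPM in LFD and 25.7 CPM in HFD, and Ly6c1 had 4 UMIs in LFD and none in HFD, whereas Anxa3 was at 510 and 656 CPM and Cd34 at 639 and 412 CPM.

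**Figure D1:**
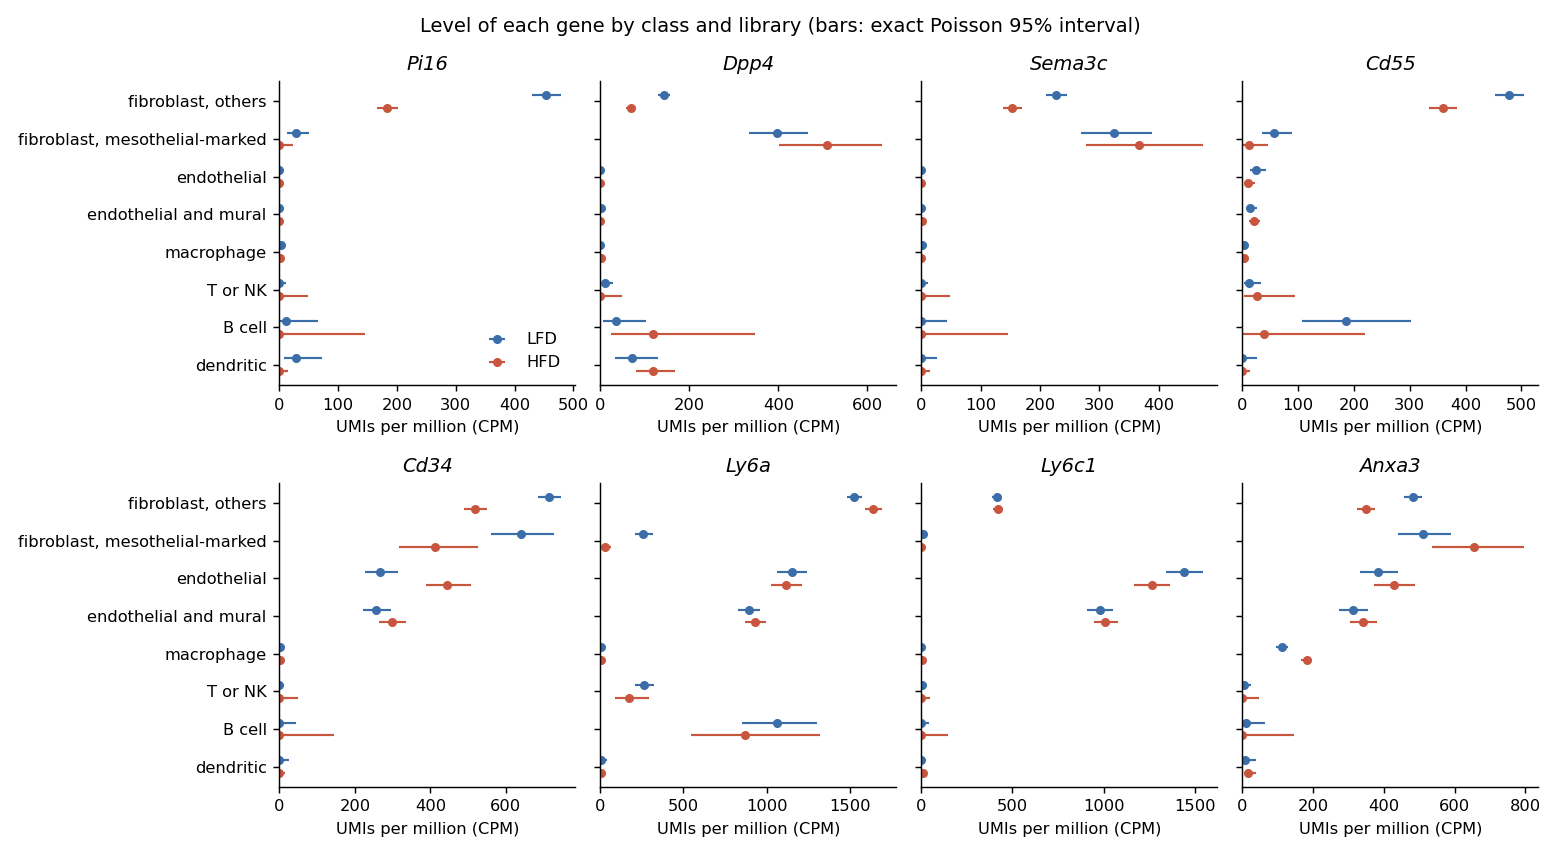
Level of each gene in UMIs per 1000000 (CPM, horizontal axis, linear from 0, own scale per gene) in each class of barcodes, with LFD in blue and HFD in red and bars for the exact Poisson 95% interval. Pi16 and Cd55 are highest in the fibroblasts that are not mesothelial-marked, with Cd55 next at 187 CPM in LFD B cell-marked barcodes, Dpp4 peaks in the mesothelial-marked barcodes at 397 and 508 CPM, and Ly6c1 peaks in endothelial barcodes at 1442 and 1262 CPM.

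Set side by side, 6 of the 8 genes were lower in HFD than in LFD fibroblasts and Ly6a and Ly6c1 were slightly higher. With 1 library per diet no test between diets is possible, and ratios are given with an exact conditional binomial 95% interval for counting error. Pi16 had the lowest ratio of HFD to LFD CPM, 0.424 (0.379 to 0.474). It was the only member at least 2-fold lower in all fibroblasts as deposited, and no member was 2-fold higher. Thinned to 1000 UMIs in a single random draw, Dpp4 had a log2 ratio of −1.11 and also passed the 2-fold mark. As a mean of the CPM of single barcodes, its log2 ratio was −0.92 and did not pass that mark. Across the 8339 genes with at least 50 UMIs in fibroblasts, 2.23% were at least 2-fold lower and 1.24% at least 2-fold higher in HFD, and the median log2 ratio was −0.03. A lower ratio than that of Pi16 was found for 1.06% of these genes.

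Dpp4 had a ratio of 0.568 (0.485 to 0.663) and Sema3c of 0.699 (0.618 to 0.790), with 4.13% and 11.2% of all tested genes lower still. The ratios of Cd34 (0.725, 0.676 to 0.777), Anxa3 (0.761, 0.700 to 0.827) and Cd55 (0.784, 0.718 to 0.855) had 13.5%, 17.2% and 19.8% of genes below them. Ly6a had 1.11 (1.07 to 1.16) and Ly6c1 1.07 (0.978 to 1.16), the latter with an interval that holds 1.

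Without the mesothelial-marked barcodes, which held 144 of the 542 Dpp4 UMIs of LFD and 79 of the 236 of HFD fibroblasts, Dpp4 went from 142 CPM to 69.3 CPM, a ratio of 0.487 (0.402 to 0.587), and so passed the 2-fold mark. In that set 2.39% of 7935 genes were at least 2-fold lower and 1.41% at least 2-fold higher. Pi16 was at 0.404 (0.361 to 0.452), Sema3c at 0.673 (0.589 to 0.769), Cd55 at 0.751 (0.688 to 0.820), Cd34 at 0.726 (0.675 to 0.780) and Anxa3 at 0.726 (0.664 to 0.793). Ly6a came to 1.08 (1.03 to 1.12) and Ly6c1 to 1.01 (0.928 to 1.10). In this set the intervals of Pi16 and Dpp4 overlapped, as did those of Sema3c, Cd55, Cd34 and Anxa3. Under the filter of the study, at most 2500 genes and under 5% mitochondrial UMIs, 77 LFD and 91 HFD fibroblasts remained and the log2 ratios of Pi16 and Sema3c were −2.88 and −1.41, both past 2-fold, in place of −1.24 and −0.52. That of Dpp4 was −0.77 in place of −0.82, which put Sema3c below Dpp4, and that of Ly6c1 was −0.22 in place of 0.09.

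**Figure D2:**
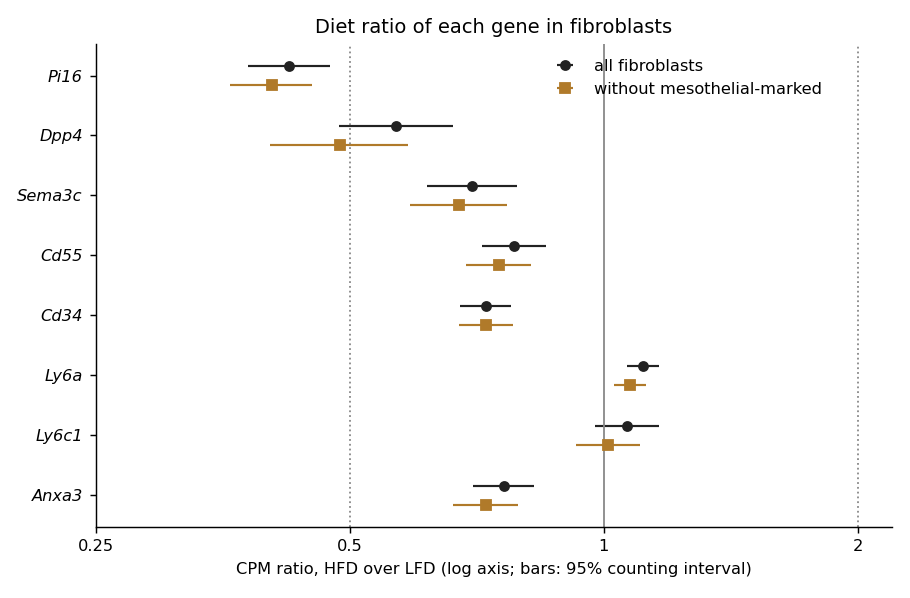
Ratio of HFD to LFD CPM of each gene in fibroblasts (horizontal log axis), for all fibroblasts (black circles) and without mesothelial-marked barcodes (brown squares), with 95% counting intervals, a line at 1 and dotted lines at 2-fold. Pi16 lies below 0.5 in both sets, at 0.424 and 0.404, Dpp4 crosses it when the mesothelial-marked barcodes are left out, and Ly6a and Ly6c1 lie close to 1.

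With the lower Pi16 level in HFD came fewer fibroblasts that held many UMIs. In LFD, 220 of 377 fibroblasts had no Pi16 UMI, 53 had 1 to 2, 65 had 3 to 9 and 39 had 10 or more. In HFD, 205 of 291 had none, 45 had 1 to 2, 30 had 3 to 9 and 11 had 10 or more. The share with at least 10 UMIs was 10.3% (exact binomial interval 7.46 to 13.9%) in LFD and 3.78% (1.90 to 6.66%) in HFD. The 38 LFD and 30 HFD fibroblasts with most Pi16 held 67.3% and 75.7% of its UMIs, and the highest single barcode held 75 and 48. Every barcode was also thinned to 1000 UMIs in a single draw, which left out 5 LFD and 2 HFD fibroblasts. In that draw Pi16 was seen in 17.5% (13.8 to 21.7%) and 11.4% (7.99 to 15.7%) of barcodes, and over all draws in 19.8% and 10.7%. The thinned shares of the other genes below are from the same draw, and over all draws Sema3c had 17.1% and 11.2%.

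Dpp4 was seen in 47.7% (42.6 to 52.9%) of LFD and 31.6% (26.3 to 37.3%) of HFD fibroblasts, and in 13.2% and 6.23% after thinning. Without the mesothelial-marked barcodes its shares as deposited were 44.0% and 28.9%, those of Sema3c 46.8% and 29.2%, and those of Pi16 44.8% and 31.0%. Only 2 barcodes of each library held 10 or more Dpp4 UMIs. Sema3c was seen in 50.4% (45.2 to 55.6%) and 31.6% (26.3 to 37.3%), or 15.6% and 11.1% after thinning, where the intervals of 12.1 to 19.7% and 7.70 to 15.3% overlapped. Cd55 went from 58.4% to 50.2%, and thinned from 21.2% to 16.6%, with overlapping intervals in both cases. Anxa3 went from 78.0% to 66.0%, and thinned from 33.3% to 22.8%, and its intervals did not overlap. Over all draws Anxa3 had 32.0% and 23.2%.

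Cd34 was found in most fibroblasts, 94.2% in LFD and 89.7% in HFD. Its median was 5 UMIs per barcode in LFD and 3 in HFD, and its thinned share was 47.8% (42.7 to 53.1%) and 32.9% (27.5 to 38.6%), intervals that do not overlap. Ly6a was seen in 91.5% and 94.2% of fibroblasts with a median of 9 and 10 UMIs, and Ly6c1 in 63.9% and 68.7% with a median of 1 and 2 UMIs. After thinning Ly6c1 was at 26.3% and 26.0%, a difference within the counting intervals of 21.9 to 31.1% and 21.0 to 31.4%.

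**Figure D3:**
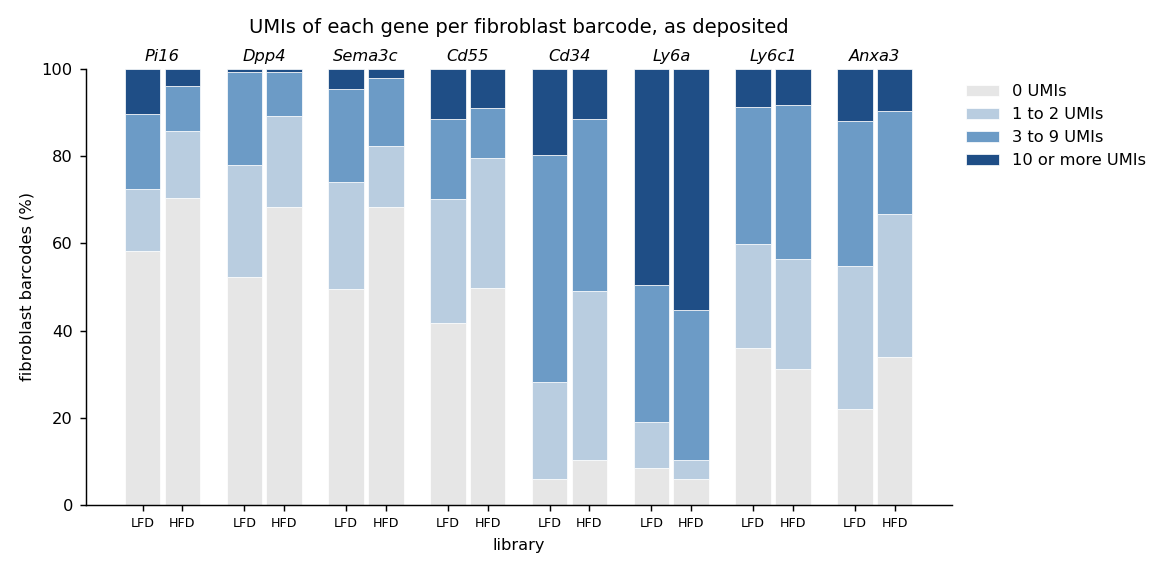
Share of fibroblast barcodes (vertical axis, %) with 0, 1 to 2, 3 to 9 and 10 or more UMIs of each gene, in the LFD and the HFD library, as deposited. For Pi16 the darkest band, 10 or more UMIs, is 10.3% of LFD and 3.78% of HFD fibroblasts, while for Ly6a it is 49.6% and 55.3%.

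Beyond fibroblasts, Cd34 differed between the libraries in the other direction in endothelial barcodes, with a ratio of 1.66 (1.35 to 2.06) from 148 LFD and 230 HFD UMIs. It was 1.34 (1.17 to 1.54) once the barcodes that met both the endothelial and the mural threshold were added, and 1.16 (0.965 to 1.40) in those alone. The median endothelial depth was 4318 UMIs in LFD and 3156 in HFD, and its part in the result was not tested. Ly6a and Anxa3 had endothelial ratios of 0.971 (0.866 to 1.09) and 1.12 (0.920 to 1.35), and Ly6c1 of 0.875 (0.788 to 0.972), or 0.935 with the added barcodes, where the interval holds 1. In macrophages Anxa3 had a ratio of 1.63 (1.37 to 1.96). No member reached 2-fold in either class on at least 50 UMIs, where 1.5% and 5.9% of all tested genes were at least 2-fold lower and 0.736% and 5.36% at least 2-fold higher in endothelial barcodes and macrophages.

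Whether the genes were carried by the same barcodes was read from pairs. In each library the 8 genes form 28 pairs, and the number of fibroblasts with a UMI of both was set against the number expected from the share of each. Deep barcodes make any genes coincide, so each barcode was reduced to 1000 UMIs, and the mean over all possible draws was computed exactly. Of the 28 pairs, 28 in LFD and 25 in HFD were seen together more often than expected. Their median observed over expected was 1.30 in LFD (range 1.03 to 2.18) and 1.54 in HFD (range 0.880 to 3.13). Over all pairs of genes seen in at least 5% of thinned fibroblasts, the median was 0.987 in both libraries for a single draw, in which the median of the 28 was 1.37 and 1.59.

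The pairs with the 4 highest ratios in each library were all drawn from Pi16, Sema3c, Cd55 and Dpp4. Sema3c was seen in 35.5% of LFD fibroblasts with Pi16 and in 12.6% of those without, and in HFD in 35.0% with Pi16 and 8.34% without. Cd55 was seen in 50.9% with Pi16 and 16.5% without in LFD, and in 50% and 14.7% in HFD. Dpp4 was seen in 21.9% with Pi16 and 11.4% without in LFD, and in 17.2% and 6.35% in HFD.

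Observed over expected was 2.18 in LFD and 2.71 in HFD for Pi16 with Cd55, 2.07 and 3.13 for Pi16 with Sema3c, 2.03 and 2.94 for Dpp4 with Sema3c, and 1.94 and 2.85 for Sema3c with Cd55. Dpp4 with Cd55 came to 1.58 and 2.11. Anxa3 came to 1.52 and 2.18 beside Dpp4, 1.58 and 2.28 beside Sema3c, 1.58 and 1.91 beside Cd55 and 1.53 and 1.93 beside Pi16. Ly6c1 beside Pi16, at 1.61 and 1.76, was near Dpp4 beside Pi16 in LFD, at 1.63, and below it in HFD, at 2.29. Cd34 and Ly6a, which most fibroblasts carry, came to 1.05 and 1.04 together, close to what their shares alone give. The ratio was higher in HFD for 18 of the 28 pairs. The same share over all gene pairs was not computed, so nothing is read from this count. In the single draw the 90th percentile of the ratio over all gene pairs was 1.59 in LFD and 1.64 in HFD. A gene seen in fewer barcodes can reach a higher ratio, and 6 of the 8 genes, those other than Ly6a and Ly6c1, were seen in a smaller share of HFD fibroblasts over all draws. Ly6c1 had 26.5% in LFD and 27.9% in HFD over all draws, on the other side of the single draw above.

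Pairs with a ratio of at least 2 numbered 3 in LFD and 8 in HFD over all draws. In the first random draw they numbered 5 and 8, where 3.56% and 4.66% of all gene pairs reached 2. With a second seed they numbered 0 and 8, at 2000 UMIs 0 and 4, and without thinning 0 and 1, so the LFD count rests on the draw and nothing is read from it. Without the mesothelial-marked barcodes all 28 pairs exceeded 1 in both libraries over all draws, with a median of 1.39 and 1.57, and 4 and 10 pairs reached 2. In the first draw 27 pairs exceeded 1 in each library and 6 and 10 reached 2, where 3.74% and 5.03% of all pairs of genes seen in at least 5% of the thinned barcodes did. In HFD that background leaves out the 7 pairs with Dpp4, seen in 4.71% of this set, so the 10 cannot be read against it. In that set Dpp4 with Pi16 had 1.91 and 2.84 in place of 1.63 and 2.29, and Dpp4 with Ly6a 1.17 and 1.08 in place of 1.03 and 0.880. Over all draws, the ratios of Ly6a with Dpp4, Sema3c and Anxa3 in HFD were below 1 with the mesothelial-marked barcodes and above 1 without them.

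**Figure D4:**
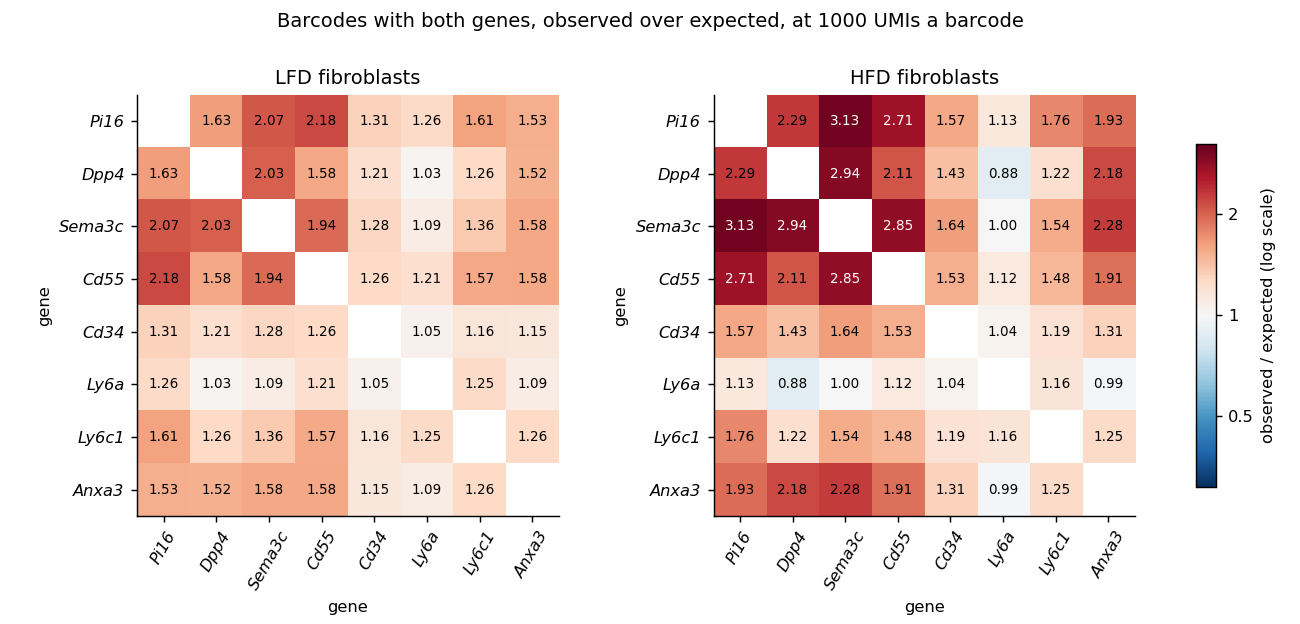
Fibroblasts with a UMI of both genes, observed over expected, at 1000 UMIs per barcode as the mean over all draws, in LFD (left) and HFD (right), with genes on both axes and colour on a log scale (red above 1, blue below). The highest values join Pi16, Dpp4, Sema3c and Cd55, up to 2.18 in LFD and 3.13 in HFD, and the row of Ly6a stays between 0.880 and 1.26.

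As deposited, 90 of 377 LFD fibroblasts (23.9%, 19.7 to 28.5%) held UMIs of all of Pi16, Dpp4, Sema3c and Cd55, against 37 of 291 in HFD (12.7%, 9.11 to 17.1%). Without the mesothelial-marked barcodes these were 89 of 348 (25.6%) and 37 of 277 (13.4%). None of these 4 genes was seen in 81 LFD (21.5%) and 93 HFD (32.0%) fibroblasts. In the single draw of 1000 UMIs per barcode, 18.5% (14.7 to 22.9%) of LFD and 9.69% (6.53 to 13.7%) of HFD fibroblasts held at least 2 of the 4. At least 3 were held by 6.99% (4.62 to 10.1%) and 4.84% (2.67 to 7.99%), with overlapping intervals.

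Fibroblasts that are not mesothelial-marked were also sorted by their Pi16 UMIs as deposited. This shows the co-detection with Pi16 given above in another form and is no separate support for it. The intervals leave out differences between barcodes. In LFD, 192 had none and 38 had 10 or more, and in HFD 191 and 11. Cd55 stood at 139 CPM (120 to 159) without Pi16 and 1199 CPM (1087 to 1319) at 10 or more in LFD, and at 132 CPM (114 to 152) and 1768 CPM (1523 to 2041) in HFD. Sema3c stood at 74.6 and 641 CPM in LFD and at 42.7 and 884 CPM in HFD. Dpp4 stood at 51.6 CPM and 300.4 CPM in LFD and at 30.0 CPM and 295 CPM in HFD. At 10 or more Pi16 UMIs the Dpp4 intervals of the libraries, 246 to 364 CPM and 200.2 to 418 CPM, overlapped, on 38 and 11 barcodes.

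At 1 to 2 Pi16 UMIs, Dpp4 was at 164 CPM (128 to 206) in LFD and 78.1 CPM (52.3 to 112) in HFD. Between no Pi16 and 10 or more UMIs, Cd34 went from 518 to 1202 CPM in LFD and from 387 to 1026 CPM in HFD, and Ly6a from 1254 to 2252 CPM in LFD and from 1494 to 2043 CPM in HFD. Dcn, the gene that defines the class, went the other way, from 24319 to 14684 CPM in LFD and from 18867 to 13390 CPM in HFD. Median depth was 8068 UMIs without Pi16 and 9406 UMIs at 10 or more in LFD, and 7587 and 9643 UMIs in HFD, and its part in these differences was not tested.

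**Figure D5:**
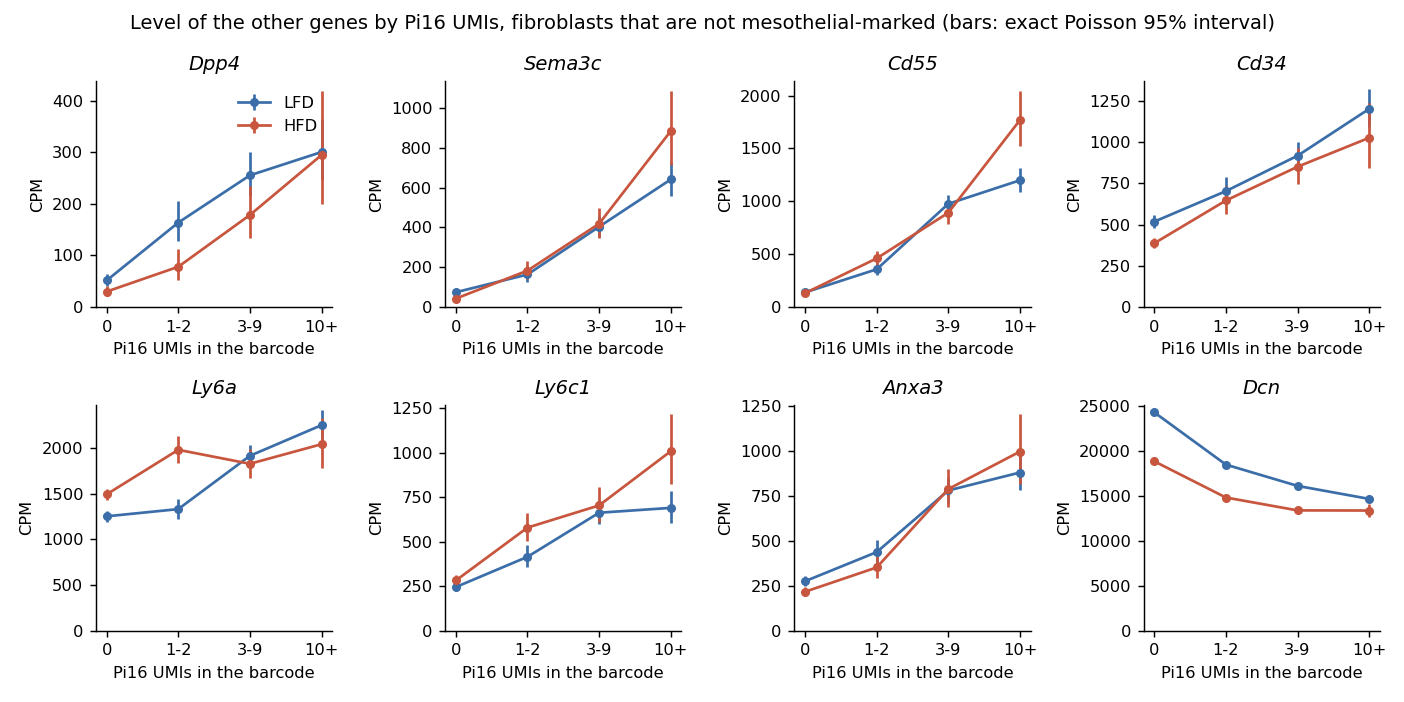
Level (CPM, vertical axis, linear from 0) of the other 7 genes and of Dcn in fibroblasts that are not mesothelial-marked, by the number of Pi16 UMIs in the barcode, in LFD (blue) and HFD (red), with exact Poisson 95% intervals. Cd55 goes from 139 to 1199 CPM in LFD and from 132 to 1768 CPM in HFD, and Dcn from 24319 to 14684 CPM and from 18867 to 13390 CPM.

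The genes most like each member were found by Pearson correlation of log-scaled UMIs across the 377 LFD and 291 HFD fibroblasts, over 8611 genes. Barcodes of a library share its preparation and differ in depth, so these values are descriptions. Closest to Pi16 were Cd55 (r = 0.63 in LFD and 0.58 in HFD), Sema3c (0.54 and 0.55) and Col14a1 (0.59 and 0.53), a fibril-associated collagen. Closest to Dpp4 were Sema3c (0.59 and 0.60), Efemp1 (0.55 and 0.55), an extracellular fibulin, and Ildr2 (0.53 and 0.58). Without the mesothelial-marked barcodes Efemp1 (0.50 and 0.49) and Ildr2 (0.48 and 0.47) lay below Cd55 (0.56 and 0.59) and Anxa3 (0.56 and 0.59) in likeness to Dpp4. Sema3c had Limch1 (0.57 and 0.61) and Ildr2 (0.56 and 0.55) after Dpp4. Sema3c lay closer to Cd55 (0.63 and 0.71) and Pi16 (0.61 and 0.62) than to Dpp4 (0.57 and 0.60) once the mesothelial-marked barcodes were left out. Cd55 had Efhd1 (0.63 and 0.61), Nov (0.58 and 0.68) and Pi16.

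Anxa3 was closest to Fbn1 (0.54 and 0.52), the fibrillin gene, to Dpp4 (0.51 and 0.60) and to Cd55 (0.52 and 0.51). Cd34 had weaker neighbours in Sema3c (0.45 and 0.49), Col14a1 (0.43 and 0.43) and Fbn1 (0.48 and 0.41). Ly6c1 was nearest to Fn1 (0.56 and 0.56), Ly6a (0.59 and 0.50) and Mfap5 (0.48 and 0.46), and Ly6a to Dpt (0.50 and 0.56), Ly6c1 and Clec3b (0.41 and 0.53). The correlation of Ly6a with Dpt was 0.33 and 0.28 without the mesothelial-marked barcodes. Dpp4 with Pi16 came to 0.35 and 0.39, and to 0.48 and 0.51 without them.

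Other genes of the interstitial progenitor were followed from a list of 17, of which 16 had at least 50 UMIs in fibroblasts. Of these, 14 had a ratio below 1 and 4 were at least 2-fold lower in HFD, none was 2-fold higher, where 2.23% and 1.24% of all tested genes were, and their median log2 ratio was −0.45 against −0.03 over all genes. The lowest were Bmp7, a secreted growth factor, at 0.186 (0.0712 to 0.414) from 49 LFD and 7 HFD UMIs, and Stmn4, a microtubule regulator, at 0.302 (0.181 to 0.484). Opcml (0.449) and Efhd1 (0.450) were the others past 2-fold and were named after their values were seen. The matrix genes Mfap5 (1.18, 1.13 to 1.23) and Fbn1 (1.21, 1.15 to 1.26) were higher in HFD.

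The list of committed preadipocyte genes had ratios above 1, but its genes are not specific to those cells. The study names Col15a1 as a marker of its early progenitors and also found Fabp4 and Plin2 in mesenchymal stromal cells. In endothelial barcodes Lpl stood at 612 and 486 CPM and Col4a1 at 972 and 1336 CPM. In fibroblasts all 10 measured of the 11 listed genes had a ratio above 1, with a median log2 ratio of 0.77. Of these, 4 were at least 2-fold higher, as were 1.24% of all tested genes. Lpl, the lipoprotein lipase gene, went from 490 to 1177 CPM, a ratio of 2.40 (2.26 to 2.56), and Col4a1, a basement membrane collagen, from 919 to 1946 CPM, 2.12 (2.02 to 2.22). Plin2 (2.09) and Col15a1 (2.02), named after their values were seen, completed the 4. Icam1 and Ggt5 were lowest, at 1.03 (0.834 to 1.28) and 1.22 (1.05 to 1.42). The interval of Icam1 holds 1, as do those of Cebpa (1.25, 0.811 to 1.92) and Pparg (1.64, 0.919 to 2.98), transcription factors of adipocyte differentiation that were also named after their values were seen, and the intervals of the other 7 lie above 1. Of the adipogenesis-regulating stromal genes, 3 of 7 were below 1 and 4 above, and 1 was at least 2-fold lower and 1 at least 2-fold higher, where 2.23% and 1.24% of all tested genes were, with Vit at 0.477 (0.393 to 0.575) and Fmo2 at 0.566 (0.504 to 0.635) lowest and Mgp at 2.52 (2.41 to 2.63) and Clec11a at 1.64 (1.05 to 2.56) highest. Fmo2 stood at 1141 and 1821 CPM in the mesothelial-marked barcodes and at 206 and 64.8 CPM in the others. Without the mesothelial-marked barcodes, a setting added after the values were seen, Fmo2 was at 0.314 (0.260 to 0.377), past 2-fold and below Vit at 0.465 (0.383 to 0.563), so that 2 of these 7 genes were at least 2-fold lower, and 3 in place of 4 committed preadipocyte genes were at least 2-fold higher. Of all tested genes in that set 2.39% were at least 2-fold lower and 1.41% higher.

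Receptors of SEMA3C showed no 2-fold difference. The 6 measured of 8 divided into 3 below and 3 above 1, from Plxna4 (0.665, 0.398 to 1.09) and Nrp2 (0.761, 0.524 to 1.10) to Nrp1 (1.14, 1.02 to 1.28) and Plxnd1 (1.38, 0.919 to 2.09), and only Nrp1, at 206 and 235 CPM, rested on more than 100 UMIs in each library. Plxna4 came almost wholly from the mesothelial-marked barcodes, with 49 of 51 LFD and 26 of 26 HFD UMIs, where it stood at 135 and 167 CPM, and the other fibroblasts held 2 and 0 UMIs. Among membrane complement regulators and the CD55 partner Adgre5, Cr1l came to 0.918 (0.770 to 1.09) and Adgre5 to 1.49 (0.926 to 2.39), on 36 and 41 UMIs. Adgre5 came to 2.33 (1.28 to 4.38) without the mesothelial-marked barcodes, on 18 and 34 UMIs.

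Relatives of DPP4 had ratios near or above 1. Fap, the closest paralog and a fibroblast surface protease, went from 43.7 to 70.2 CPM (1.61, 1.28 to 2.03), and the intracellular Dpp8 (1.46, 0.942 to 2.27), Dpp9 (1.05, 0.762 to 1.44) and Prep (0.913, 0.543 to 1.52) had intervals that hold 1. Ly6e, in the family of Ly6a and Ly6c1, was at 0.788 (0.708 to 0.876). In the CD34 family, Podxl went from 20.9 to 7.43 CPM (0.356, 0.199 to 0.606) and Podxl2 was at 1.47 (0.937 to 2.31). The mesothelial-marked barcodes held 64 of the 66 LFD and 17 of the 18 HFD UMIs of Podxl, at 176 and 109 CPM, and the other fibroblasts held 2 and 1 UMIs. Of the 10 measured annexins 7 were below 1, with Anxa8 at 0.217 (0.0944 to 0.444) and Anxa9 at 0.376 (0.213 to 0.633) lowest and Anxa5 (1.33, 1.25 to 1.40) and Anxa2 (1.29, 1.21 to 1.37) highest, and Anxa3 lay at 0.761 between them. Anxa9 stood at 77.2 CPM in the mesothelial-marked barcodes of each library and at 13.6 and 3.09 CPM in the others, where its ratio was 0.227 (0.0857 to 0.515) on 38 and 7 UMIs, and Anxa8 had 0.296 (0.0994 to 0.740) on 25 and 6 UMIs there. The median log2 ratio was −0.04 for the SEMA3C receptors, 0.31 for the DPP4 family, 0.09 for the Ly6 family, −0.46 for the CD34 family and −0.35 for the annexins, and the last 3 lists hold members. Fewer genes reached 50 UMIs without the mesothelial-marked barcodes, and the medians were 0.13, 0.30, 0.02, 0.05 over the 2 CD34 family genes left and −0.13 over the 8 annexins left, in the same order.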

How the data were processed

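One LFD and 1 HFD library of the eWAT stromal vascular fraction were used, grouped by the labels. The deposited values are unnormalized UMI counts, which the authors obtained by running Cell Ranger against mm10. The file header names version 3.0.2, and barcodes beyond the limits of the study on genes and mitochondrial UMIs are present. Feature and barcode names were used as deposited. Of 27998 gene IDs, 27645 matched GENCODE M21 (GRCm38), and 6 of the 8 genes had a promoter entry in RefSeq.

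Barcodes with at least 200 genes were classed by marker UMIs, and those of more than 1 class (65 LFD, 120 HFD) were left out of the classes. UMIs were summed per class and divided by all UMIs of the class. CPM has an exact Poisson interval, shares a Clopper-Pearson interval and ratios an exact conditional binomial interval, all at 95%. A count of 0 allows 3 counts. No count model was used, because each diet has 1 library. Thinning drew 1000 UMIs per barcode without replacement. Doublets were kept, and Scrublet, in scanpy 1.11.5 at an expected rate of 1%, called 20 LFD and 26 HFD barcodes, of which 3 and 1 were fibroblasts. Scripts ran in Python 3.11.15 with scipy 1.17.1 and were tested on simulated counts.

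All 8 genes are named, with the 2 highest and 2 lowest ratios of each gene list and the 3 genes most correlated with each member (smaller r at least 0.3). The members and lists were chosen with earlier results of these data known, and the alternatives on mesothelial-marked barcodes, on the separate endothelial and mural set, on the top barcode and on the mean over draws were chosen after seeing the data. Cluster-based cell types, trajectories and the other assays of the study were not analysed here.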

Additional observations from a re-analysis of the deposited data

Results flagged for a closer look

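Cd34 had an HFD over LFD ratio of CPM of 0.725 in fibroblasts and 1.66 in endothelial barcodes, and every class is 1 library per diet. It was listed because its ratio lay on opposite sides of 1 in these classes, and the difference between the classes was not tested.

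Anxa3 had a ratio of 0.761 in fibroblasts and 1.63 in macrophages. It was listed for the same reason, and this difference was not tested either.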

How the results depend on the processing

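Over 104 alternative values of the ratios of the 8 genes, 95 stayed within the counting interval of the reported value, 9 lay outside it, and a change of sign was seen for Ly6c1 alone, whose interval holds 1. These are not all separate checks. Leaving out barcodes with at least 5 or at least 2 mesothelial marker UMIs kept the same 348 LFD and 277 HFD fibroblasts. A floor of 1000 UMIs kept 372 of 377 LFD and 289 of 291 HFD fibroblasts. Under the filter of the study the log2 ratio was −2.88 for Pi16 (reported −1.24), −1.41 for Sema3c (−0.52), −0.22 for Ly6c1 (0.09) and −0.55 for Anxa3 (−0.39). As a mean of the CPM of single barcodes it was −1.43 for Pi16 and −0.52 for Anxa3. In a single draw of 1000 UMIs per barcode it was −1.11 for Dpp4 (−0.82), −0.18 for Sema3c and −0.60 for Anxa3. The mean of the CPM of single barcodes gave −0.92 for Dpp4 and −0.53 for Sema3c, both within the counting interval. Ranges over 13 alternatives each were −0.41 to −0.31 for Cd55, −0.56 to −0.44 for Cd34 and 0.10 to 0.20 for Ly6a.

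The number of the 28 pairs seen together at least 2 times as often as their shares give was the least stable value. In LFD it was 5 as drawn first, 8 under the filter of the study, 0 without thinning, 0 at 2000 UMIs, 0 with a second seed and 3 as the exact mean over draws. In HFD it was 8 as drawn first, 1 without thinning and 4 at 2000 UMIs, and 8 with the second seed and as the exact mean. The cause of the shifts was not tested, except that the filter of the study leaves 77 LFD and 91 HFD fibroblasts.

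No paired analysis was possible because each diet has 1 library and the result comes from no test. With 1 library per diet, differences between animals, between preparations and between diets cannot be told apart, and leaving out a replicate could not be done.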
